A study of Mus musculus with 8 samples.

Results

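The ligands described here are 9 secreted proteins of the bone morphogenetic protein (BMP) and growth differentiation factor (GDF) family, Bmp10, Gdf2, Bmp2, Bmp4, Bmp5, Bmp6, Bmp7, Gdf6 and Gdf11, out of 19938 genes measured on Affymetrix mouse gene ST arrays. They were chosen by gene symbol, and each was represented by 1 probe set, the group of probes whose combined signal gives 1 value per array. RNA came from hepatic stellate cells, which wrap the liver sinusoids and store retinoids, sorted by their vitamin A autofluorescence. The knockout group held 4 arrays (replicates 5 to 8) from mice with Mx1Cre and floxed Lhx2, and the control group held 4 arrays (replicates 1 to 4) from Lhx2 floxed mice without Cre, all on a C57BL/6J background. Both groups had received 3 treatments with poly(I:C), an RNA mimic of virus that triggers interferon, and the cells were taken 2 weeks later. Interferon turns on Mx1Cre in liver and blood cells of several types, so that loss of Lhx2 in stellate cells, loss in other cells and effects of Cre itself cannot be told apart. The labels do not tie each array to a separate mouse, so p-values here cover the spread among arrays only, which may be technical.

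BMP and GDF proteins are made as precursors, are cut by proprotein convertases, and act as dimers on pairs of type I and type II serine/threonine kinase receptors. The receptors of classical BMPs phosphorylate Smad1, Smad5 and Smad9, and Gdf11 is not one of these ligands. BMP9, the product of Gdf2, and BMP10 circulate in blood and bind the endothelial type I receptor ALK1 (Acvrl1) with its co-receptor endoglin. In liver, stellate cells are known as a source of BMP9 and BMP10, and sinusoidal endothelial cells as the source of the BMP2 and BMP6 that drive hepcidin, the iron hormone of hepatocytes. Lhx2 encodes a LIM homeodomain transcription factor, and the series title names activation of stellate cells after its deletion as the question.

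The promoters of Bmp10 and Gdf2 are shown because these were the members with the largest differences, both lower in the knockout. The 250 bases before each annotated start, read 5′ to 3′ on the coding strand, are from RefSeq (GRCm38.p6), chr6:87428744-87428993, plus strand, for Bmp10 and chr14:33940789-33941038, plus strand, for Gdf2. Capitals mark AGATAA, a form of the motif of GATA factors, and TAATTA, a motif of homeodomain factors, searched on both strands.
Bmp10: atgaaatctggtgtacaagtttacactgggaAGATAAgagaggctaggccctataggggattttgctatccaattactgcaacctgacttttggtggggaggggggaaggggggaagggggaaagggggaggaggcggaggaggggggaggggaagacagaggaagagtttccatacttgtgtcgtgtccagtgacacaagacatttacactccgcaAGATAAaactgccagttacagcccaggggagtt
Gdf2: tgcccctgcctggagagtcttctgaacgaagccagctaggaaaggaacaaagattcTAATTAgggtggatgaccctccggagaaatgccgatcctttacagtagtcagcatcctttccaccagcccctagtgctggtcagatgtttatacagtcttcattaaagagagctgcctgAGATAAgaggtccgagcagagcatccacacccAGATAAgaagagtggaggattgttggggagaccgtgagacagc
Each of these windows held AGATAA in 2 places on the plus strand, starting 219 and 33 bases before the start of Bmp10 and 75 and 43 bases before the start of Gdf2. Of 32851 windows of the same length in the RefSeq promoter table, 9.99% held AGATAA at least once and 0.938% at least 2 times. TAATTA occurred 1 time in the Gdf2 window, 194 bases before the start, and 0 times in the Bmp10 window, against 4.84% of all windows with at least 1 match. The windows of Bmp4, Bmp5, Bmp6 and Gdf11 held neither AGATAA nor TAATTA, and none of the 6 windows held GGCGCC, a GC-rich motif of Smad1 and Smad5 (9.59% of all windows). GC content was 63.2%, 42.8%, 68.8% and 81.2% in the windows of Bmp4, Bmp5, Bmp6 and Gdf11. It was 52.0% for Bmp10 and 50.4% for Gdf2, with a mean of 53.2% over all windows. AGATAA and TAATTA are rich in A and T, and the part of GC content in these matches was not tested. Bmp2, Bmp7 and Gdf6 were not searched. The motifs do not overlap each other, and AGATAA was added to the search after these sequences had been read. A match describes the letters of a window and does not show binding.

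Levels are deposited log2 expression values, on which 1 unit is a 2-fold change. Values over all arrays ran from 4.19 to 14.42, and array medians lay between 7.42 and 7.47. In values of this kind, made with the Robust Multichip Algorithm, differences of very bright and very dim probe sets can be compressed. As a guide to the level of genes that are not expressed, 1194 olfactory and vomeronasal receptor genes had a median of 5.40 and a 95th percentile of 6.77. Every ligand lay above that percentile in all 8 arrays, with Bmp7 closest to it. The 11 measured stellate markers averaged 13.03 ± 0.02 in the knockout and 13.17 ± 0.04 in the control group (SD, n = 4 each), all of them above the receptor percentile. Lhx2 is 1 of these markers, so its own fall is part of that difference. Lhx2, the deleted gene, averaged 11.29 ± 0.17 in the knockout and 11.95 ± 0.08 in the control group (SD, n = 4 each), which left 63.3% of the control level (limma adjusted p = 0.00136). Whether its probes lie in the deleted part is not given, so its level is a limited check of the deletion. RNA of other liver cells was present in both groups, with hepatocyte marker means per array of 9.34 to 10.90 in the knockout and 8.86 to 11.01 in the control group, and sinusoidal endothelial marker means of 8.54 to 9.77 in the knockout and 8.55 to 11.00 in the control group.

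The ligands changed in both directions in the knockout. Bmp10, Gdf2 and Bmp5 fell, Bmp6, Bmp4, Gdf6 and Gdf11 rose, and Bmp2 and Bmp7 did not pass the test, which was limma's moderated test at a threshold of 0.05 after Benjamini-Hochberg adjustment across the genes tested. These 7 of 9 ligands, 77.8%, stand against 7.38% of all 19938 genes that passed (3.76% higher and 3.63% lower). All genes include dim ones, whereas every ligand lay above the receptor percentile. A fit over the 13688 genes with a mean above that percentile called 771 higher and 726 lower, among them 4 ligands higher and 3 lower. The members were chosen with earlier results of these data known, so the share of 77.8% describes the ligands and is not independent evidence about the family. Their median log2 difference was -0.09, and that of all genes was -0.02. The 4 knockout arrays lay wholly above the control arrays for 4 ligands and wholly below for 3, where 6.38% of all genes lay wholly above, 6.32% wholly below and 12.7% in either direction. Without controls 1 and 4, which lay at opposite ends of the hepatocyte and endothelial marker levels, 3 ligands rose and 3 fell, Gdf6 being lost.

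**Figure D1:**
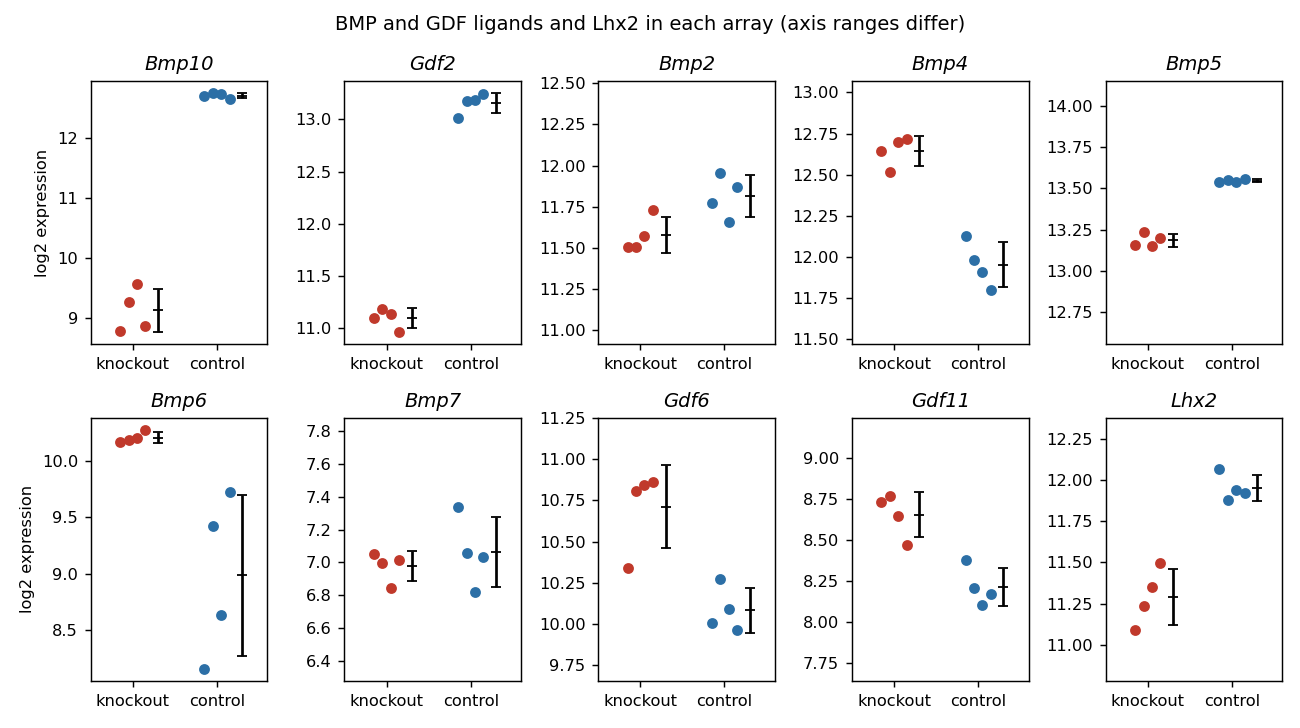
Log2 expression of the 9 ligands and Lhx2 in each array (points, 4 knockout and 4 control), with the mean and SD of each group as a bar beside them; the range of the vertical axis differs between panels. Bmp10 sits at 8.80 to 9.58 in the knockout and 12.65 to 12.75 in the control arrays, and Bmp6 is tightly grouped in the knockout and spread over 8.15 to 9.72 in the control arrays.

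Bmp10, a ligand of ALK1 best known from the heart and liver, had the second largest fall of all genes tested. Its log2 levels were 8.80, 9.28, 9.58 and 8.88 in knockout arrays 5 to 8, against 12.70, 12.75, 12.73 and 12.65 in control arrays 1 to 4. The groups were more than 3 log2 units apart at their nearest arrays, and the knockout arrays differed from each other far more than the control arrays did. The mean was 9.13 ± 0.36 in the knockout and 12.71 ± 0.05 in the control group (SD, n = 4 each), so that 8.38% of the control level was left. The log2 difference was -3.58 (95% interval -3.92 to -3.23, limma adjusted p = 1.73e-06). In bulk RNA of sorted cells, fewer cells that express a gene and less of its RNA per cell cannot be told apart, and this holds for each ligand below.

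Gdf2, the gene of BMP9, fell by 2.06 on the log2 scale, the 11th largest fall. It had log2 levels of 11.09, 11.18, 11.14 and 10.96 in knockout arrays 5 to 8, against 13.01, 13.18, 13.18 and 13.24 in control arrays 1 to 4. Neither group spread over more than 0.3 log2 units, and the groups did not overlap. A mean of 11.09 ± 0.10 in the knockout and 13.15 ± 0.10 in the control group (SD, n = 4 each) left 23.9% of the control level (95% interval of the log2 difference -2.22 to -1.91, limma adjusted p = 3.38e-07). The control level is near the top of the value range, where differences can be compressed.

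The measured fall of Bmp10 was larger than that of Gdf2. Both control levels were high, 12.71 for Bmp10 and 13.15 for Gdf2, so either fall may be compressed. The per-array difference of Bmp10 minus Gdf2, on the log2 scale, was -2.29, -1.90, -1.56 and -2.08 in the knockout arrays, against -0.31, -0.43, -0.45 and -0.60 in the control arrays. Its group means differed by -1.51 (exact two-sided permutation test over 70 assignments of the arrays, p = 0.0286, the smallest value that 4 against 4 arrays allow). This compares measured changes of a pair of probe sets, and the part of compression in the difference was not tested; it does not show which ligand had more mRNA. The order of the knockout arrays differed between these genes: array 7 had the highest Bmp10 level, array 6 the highest Gdf2 level and array 8 the highest Lhx2 level (11.49), while array 5 had the lowest levels of Bmp10 and Lhx2 (11.09).

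Bmp5, a BMP of the Bmp5, Bmp6 and Bmp7 subgroup, showed a small fall with very little spread. Knockout arrays 5 to 8 had log2 levels of 13.15, 13.24, 13.15 and 13.20, against 13.54, 13.55, 13.54 and 13.56 in control arrays 1 to 4. The groups did not overlap, and the difference of -0.36 (95% interval -0.46 to -0.26, limma adjusted p = 0.00101) left 77.8% of the control level. These levels are close to the upper end of the value range, as for Gdf2.

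**Figure D2:**
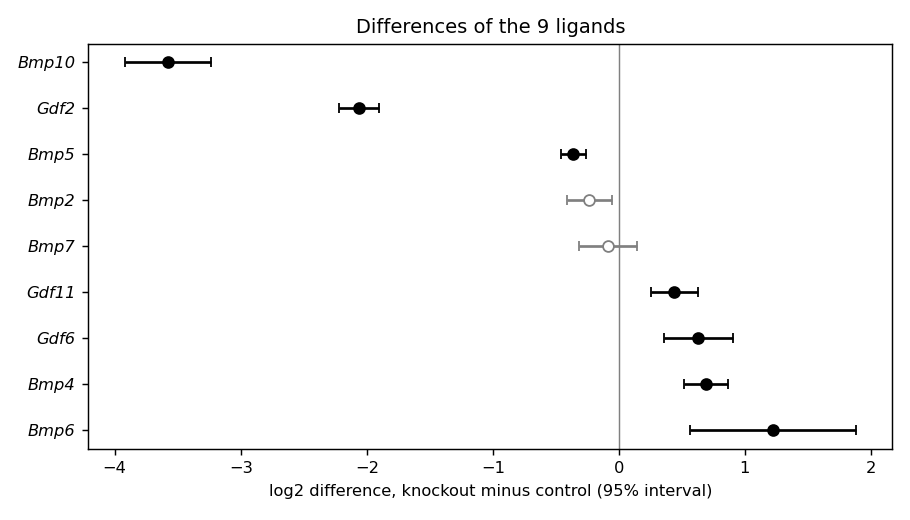
Log2 difference of each ligand, knockout minus control, with its 95% interval from the fit over all genes; filled points passed an adjusted p under 0.05 and open points did not. Bmp10 at -3.58 and Gdf2 at -2.06 lie far from the other 7 ligands, which range from -0.36 for Bmp5 to 1.22 for Bmp6.

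Bmp6, the iron-responsive ligand that sinusoidal endothelium supplies to hepatocytes, had the largest rise of the 9 ligands and the widest interval. Its log2 levels were 10.16, 10.18, 10.20 and 10.28 in knockout arrays 5 to 8, against 8.15, 9.42, 8.64 and 9.72 in control arrays 1 to 4. All knockout arrays lay above all control arrays, and the control arrays spread over more than 1.5 log2 units where the knockout arrays spread over about 0.1. The mean was 10.21 ± 0.05 in the knockout and 8.98 ± 0.72 in the control group (SD, n = 4 each), a 2.33-fold higher level (log2 difference 1.22, 95% interval 0.56 to 1.88, limma adjusted p = 0.0345). The call was lost without knockout 5, 6, 7 or 8 or control 3, each left out alone, with an adjusted p of up to 0.0889, and with a trended, robust variance model (adjusted p = 0.0973).

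Endothelial marker levels moved with Bmp6 inside the control group. The mean log2 level of 14 sinusoidal endothelial markers, such as Stab2 and Lyve1, was 8.54, 9.40, 9.20 and 9.77 in knockout arrays 5 to 8, against 8.55, 10.52, 9.44 and 11.00 in control arrays 1 to 4. Control 4 was highest in both measures, followed by control 2, control 3 and control 1. The hepatocyte marker mean had the reverse order, at 11.01, 9.79, 10.72 and 8.86 in control arrays 1 to 4. These 4 arrays therefore cannot tell whether Bmp6 ran with more endothelial or with less hepatocyte RNA. All 14 endothelial markers had a lower mean in the knockout, with log2 differences from -1.23 (Clec4g) to -0.17 (Egfl7). Of these only Clec4g passed the test. The median difference of the list was -0.67, opposite in sign to that of Bmp6. With the endothelial marker mean as a covariate the log2 difference of Bmp6 was 1.58 (limma adjusted p = 0.000161). That fit gives both groups 1 common slope, whereas Bmp6 ran from 8.15 to 9.72 with the marker mean in the control arrays and only from 10.16 to 10.28 in the knockout arrays, so the size and p of the adjusted difference depend on a slope that the knockout arrays did not show. Knockout 5 and control 1 had nearly the same endothelial marker mean, and their Bmp6 levels were 10.16 and 8.15. Knockout 6 and control 3, with endothelial marker means of 9.40 and 9.44, had Bmp6 levels of 10.18 and 8.64. Both pairs differed in hepatocyte marker mean, at 9.91 in knockout 5 against 11.01 in control 1, and 9.34 in knockout 6 against 10.72 in control 3. Controls 2 and 4 had more endothelial marker signal than any knockout array and so had no such match. The pairs are single arrays. With the hepatocyte marker mean as a covariate the log2 difference of Bmp6 was 1.21 (limma adjusted p = 0.003855). The part of endothelial or hepatocyte RNA in the Bmp6 difference was not tested beyond these covariates.

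**Figure D3:**
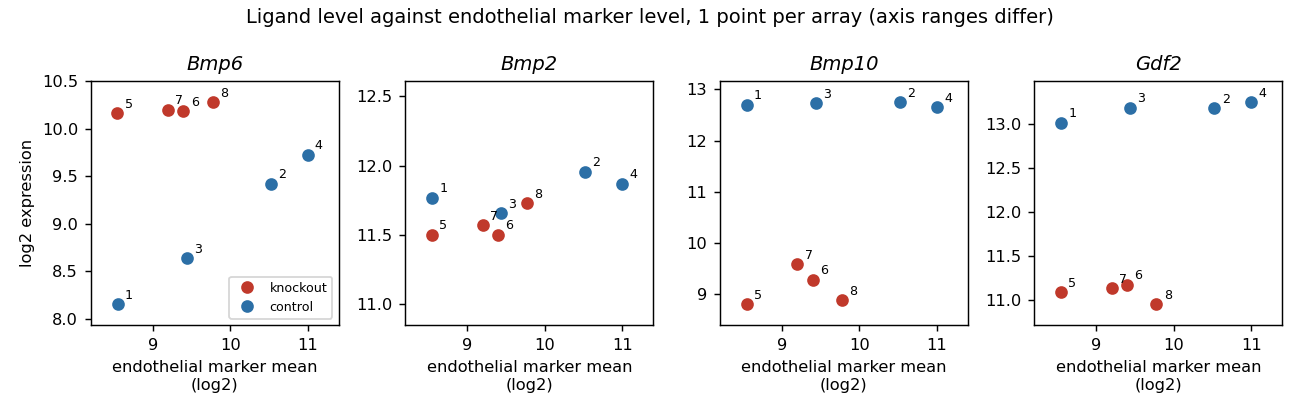
Log2 level of Bmp6, Bmp2, Bmp10 and Gdf2 (vertical axes, whose ranges differ) against the mean log2 level of 14 sinusoidal endothelial markers (horizontal axis), 1 numbered point per array. Control arrays with more endothelial marker signal had more Bmp6, up to 9.72 in control 4, and all 4 knockout arrays lay above them at endothelial means of 8.54 to 9.77, while Bmp10 and Gdf2 were lower in all 4 knockout arrays than in any control array. The control arrays with more endothelial marker signal also had less hepatocyte marker signal.

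Bmp2, the other endothelial BMP of liver, did not pass the test. Its log2 levels were 11.50, 11.50, 11.57 and 11.73 in knockout arrays 5 to 8, against 11.77, 11.96, 11.66 and 11.87 in control arrays 1 to 4. The groups overlapped, since knockout 8 was above control 3. The difference was -0.24 with a 95% interval of -0.42 to -0.06 (limma unadjusted p = 0.0151, adjusted p = 0.133). With the endothelial marker mean as a covariate it was -0.18 (limma adjusted p = 0.264), and with array weights -0.29 (limma adjusted p = 0.0394).

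Bmp4, a ligand that mesenchymal cells make in many organs, rose by 0.69 on the log2 scale. It had log2 levels of 12.65, 12.51, 12.70 and 12.72 in knockout arrays 5 to 8, against 12.13, 11.98, 11.91 and 11.80 in control arrays 1 to 4. All knockout arrays lay above all control arrays, a 1.61-fold higher mean level (95% interval of the log2 difference 0.51 to 0.87, limma adjusted p = 0.000571).

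Gdf6, a BMP-like ligand known from joint and skeletal development, rose 1.55-fold. Knockout arrays 5 to 8 had log2 levels of 10.34, 10.81, 10.84 and 10.86, against 10.003, 10.27, 10.09 and 9.96 in control arrays 1 to 4. Knockout 5 stood apart from the other knockout arrays and only just above control 2. The log2 difference was 0.63 (95% interval 0.36 to 0.91, limma adjusted p = 0.0125), and it was 0.53 without controls 1 and 4 (limma adjusted p = 0.145).

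Gdf11, a close relative of myostatin that signals through activin receptors rather than as a classical BMP, rose 1.36-fold. Its log2 levels were 8.73, 8.77, 8.65 and 8.47 in knockout arrays 5 to 8, against 8.38, 8.21, 8.10 and 8.17 in control arrays 1 to 4. The nearest arrays of the groups, knockout 8 and control 1, were 8.47 and 8.38. The log2 difference was 0.44 (95% interval 0.25 to 0.63, limma adjusted p = 0.0111). Mstn, the myostatin gene, had levels of 5.63 ± 0.09 in the knockout and 5.56 ± 0.04 in the control group (SD, n = 4 each), below the receptor percentile.

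Bmp7, known for antifibrotic action in injured rodent kidney, was the dimmest ligand. It had log2 levels of 7.05, 6.997, 6.84 and 7.02 in knockout arrays 5 to 8, against 7.34, 7.05, 6.82 and 7.03 in control arrays 1 to 4. The groups overlapped, with a difference of -0.09 (95% interval -0.31 to 0.14, limma adjusted p = 0.803). Its levels were close to the receptor percentile, where differences can be compressed.

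An exact two-sided permutation test of each ligand alone gave 0.0286 for the 7 ligands whose groups were separate, p = 0.0571 for Bmp2 and p = 0.486 for Bmp7. For Bmp10, Gdf2, Bmp4 and Bmp5 the adjusted p stayed under 0.05 in each of the 20 alternative settings, with log2 differences of -3.73 to -3.47, -2.11 to -2.02, 0.64 to 0.75 and -0.38 to -0.32. The difference of Bmp10 was -3.57 and that of Gdf2 was -2.03 with the endothelial marker mean as a covariate, and -3.57 and -2.06 with the hepatocyte marker mean.

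**Figure D4:**
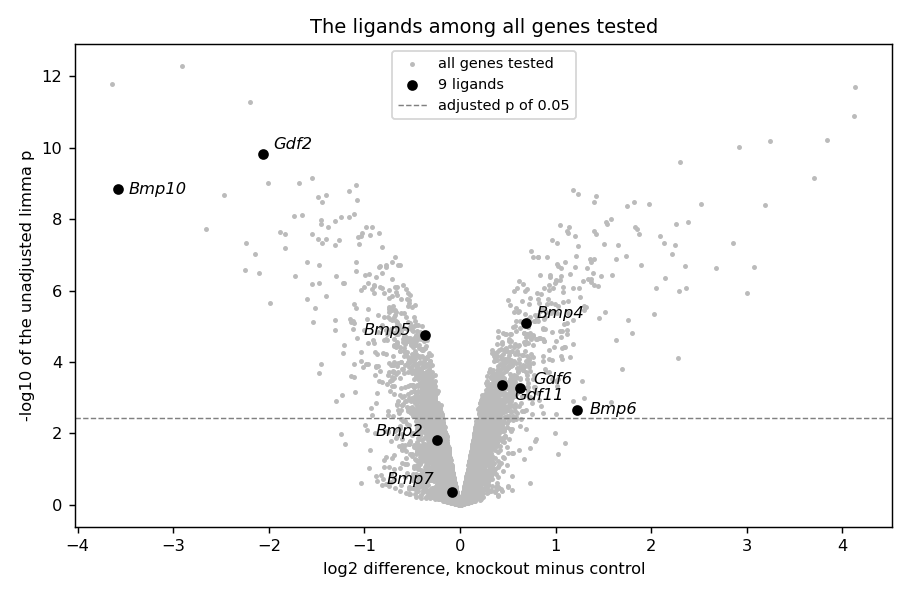
Each gene tested as a point, with its log2 difference, knockout minus control, on the horizontal axis and -log10 of the unadjusted limma p on the vertical axis; the 9 ligands are black and named, and the dashed line is the adjusted threshold of 0.05. Bmp10 and Gdf2 lie among the few genes at the far left, and Bmp2 and Bmp7 are under the line.

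Likeness of profiles to Bmp10 and Gdf2 was measured over the 8 arrays as the root mean square difference of the log2 values after subtracting the control mean of each gene. By construction this measure returns genes with a fall of about the same size, so the names below describe the ranking only. Nearest to Bmp10 was Disp2, a Dispatched-like membrane protein (distance 0.20, log2 difference -3.64), followed by Egfem1 (0.53), Raet1d (0.68), Dcdc2a (0.83) and Epor, the erythropoietin receptor (0.97). Raet1d has near-identical relatives, so its own level is uncertain. The distance between Bmp10 and Gdf2 was 1.09, which made Gdf2 the 9th nearest of 19937 genes to Bmp10 and Bmp10 the 300th nearest to Gdf2. Nearest to Gdf2 were Grhl3, a Grainyhead-like transcription factor (0.11), Galnt14, a glycosyltransferase (0.12), Acvr1c, the type I receptor ALK7 (0.22), Lratd1 (0.23) and Nr1h5, a nuclear receptor (0.25). The knockout level of Acvr1c, 6.17, was under the receptor percentile, and its distance depends on that floor.

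Genes next to the ligands on the chromosome mostly did not pass the test. Of 17 measured protein-coding neighbours, by gene order in GRCm38.p6, 2 were higher and 1 lower. For these and for each list below, the share of all genes that passed was 7.38%, dim genes included. Gkn3 and Arhgap25, on either side of Bmp10, had log2 differences of -0.04 and -0.01. Gdf10, on one side of Gdf2 and itself a BMP-like ligand (BMP3b), had levels of 12.89 ± 0.05 in the knockout and 12.77 ± 0.09 in the control group (SD, n = 4 each, limma adjusted p = 0.385). Rbp3, on the other side of Gdf2 and known as the retinoid-binding protein of the eye, fell by 0.77 (limma adjusted p = 0.0106), to 6.71 in the knockout, against 7.48 in the control group. Its knockout level was under the receptor percentile, so the size of its fall depends on that floor. The higher neighbours were Txndc5, a disulphide isomerase beside Bmp6 (0.38, limma adjusted p = 0.0141), and Cd63, a tetraspanin beside Gdf11 (0.38, limma adjusted p = 0.0452). Those 3 names were picked with their values known.

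The other ligands of the family did not pass the test. Of 14 measured, among them Bmp3, Bmp8a, Gdf5, Gdf7 and Nodal, 0 were called, with log2 differences between -0.15 (Bmp3) and 0.12 (Lefty1) and a median of -0.03. At an unadjusted p under 0.05 limma called 1, Gdf3, with a difference of -0.14. Gdf10 was the one with a high level, and 9 of the 14 had a group mean above the receptor percentile.

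Most receptors did not pass the test. Of 14 receptors and co-receptors, 2 fell and 1 rose, against 7.38% of all genes in either direction, with a median of 0.03. Acvr2a, a type II receptor shared by activins and BMPs, fell by 0.71 on the log2 scale, to 10.84 ± 0.07 in the knockout, against 11.56 ± 0.01 in the control group (SD, n = 4 each, limma adjusted p = 3.14e-05). Acvr1, the type I receptor ALK2, fell by 0.27 (limma adjusted p = 0.00911, 0.085 without controls 1 and 4). Rgma, a BMP co-receptor, rose by 0.38 (limma adjusted p = 0.0415), a call that 10 alternatives at the same threshold ended, with an adjusted p of up to 0.146. Acvrl1, the ALK1 receptor of BMP9 and BMP10, had a difference of 0.26 (limma adjusted p = 0.15), Eng, endoglin, 0.06 and Bmpr2, the main type II receptor of BMPs, -0.10.

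Genes that BMP signalling is known to induce were lower in part. Of 14 measured target genes, 4 fell and 1 rose, against 7.38% of all genes in either direction, with a median of -0.23. Id3, an inhibitor of helix-loop-helix factors, fell to 10.41 ± 0.27 in the knockout, against 11.96 ± 0.15 in the control group (SD, n = 4 each, log2 difference -1.55, limma adjusted p = 8.66e-05). Its relative Id1 fell to 8.61 ± 0.13 in the knockout, against 9.72 ± 0.45 in the control group (SD, n = 4 each, limma adjusted p = 0.00732). Hey1, a Hairy-related repressor that BMP9 induces in endothelium and that Notch also induces, fell by 1.23 (limma adjusted p = 8.28e-05), and its relative Hey2 rose by 1.21 (limma adjusted p = 9.16e-06). Id4 fell by 0.76 (limma adjusted p = 0.044), a call lost in 9 alternatives at the same threshold, with an adjusted p of up to 0.126. The inhibitory Smads did not pass, with differences of -0.36 for Smad6 (limma adjusted p = 0.0634) and -0.09 for Smad7. Without controls 1 and 4, 3 targets fell and 1 rose, and with the endothelial marker mean as a covariate the counts were the same. Endothelial cells express several of these targets, and the part of their RNA in these differences was not tested beyond that covariate.

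Among the signal carriers, Smad1 fell by 0.31 (limma adjusted p = 0.0174) and the other 5 of 6 Smads did not pass. That call was lost without knockout 5, knockout 6 or control 4, each left out alone, and without controls 1 and 4, with an adjusted p of up to 0.0716. Of 17 measured secreted antagonists, 1 rose and 1 fell, with a median of -0.05. Twsg1, which binds BMPs together with chordin, rose by 0.36 (limma adjusted p = 0.00858, 0.112 without controls 1 and 4), and Nbl1, a DAN-family antagonist, fell by 0.48 (limma adjusted p = 0.0189, 0.0649 without knockout 6). Nog and Grem1, the antagonists noggin and gremlin, had levels of 7.19 and 6.75 in the knockout and 7.23 and 6.76 in the control group, close to the receptor percentile.

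Convertases that cut TGF-beta family precursors rose in part. Of 7 proteases of precursors and antagonists, 2 rose and 0 fell, with a median of 0.10. Pcsk6 (PACE4) rose by 2.52 on the log2 scale, to 10.77 ± 0.15 in the knockout, against 8.25 ± 0.23 in the control group (SD, n = 4 each, limma adjusted p = 2.61e-06). Pcsk5 rose by 0.62 (limma adjusted p = 7.38e-05), and Furin, the general convertase, had a difference of 0.01 (limma adjusted p = 0.975).

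**Figure D5:**
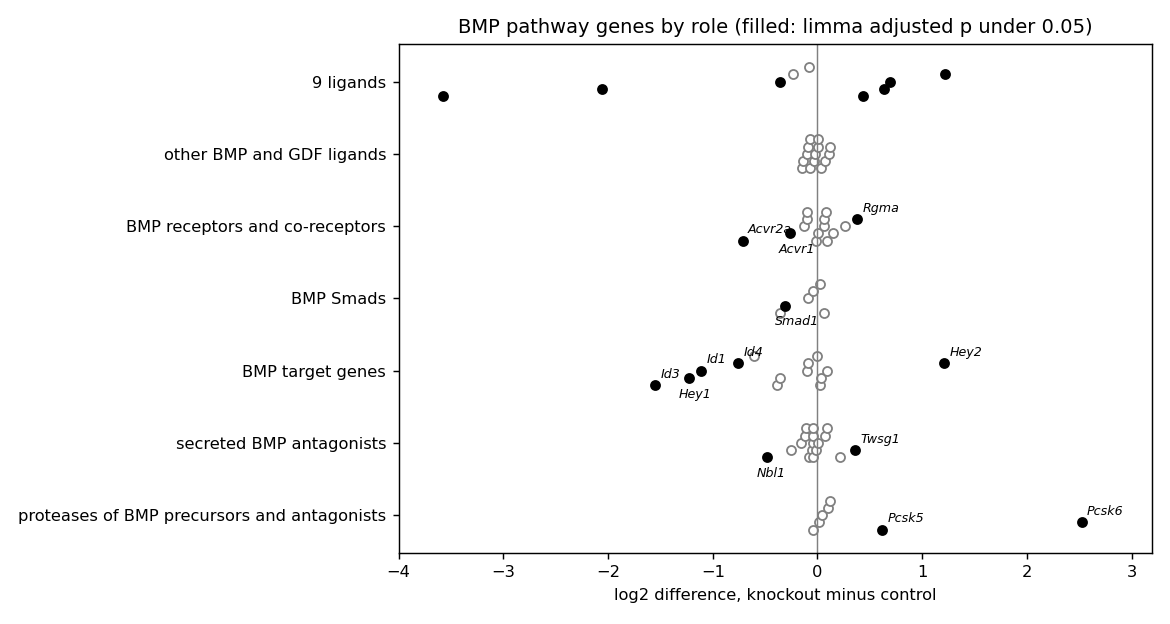
Log2 differences, knockout minus control, of BMP pathway genes, 1 point per gene and 1 row per list; filled points passed a limma adjusted p under 0.05 and, outside the 9 ligands, are named. The 9 ligands spread from -3.58 to 1.22, the other 14 ligands of the family lie between -0.15 and 0.12, and Pcsk6 at 2.52 is the point farthest to the right. The 9 ligands were chosen with earlier results of these data known.

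Markers of other cells were compared in the same arrays. Of 11 portal fibroblast markers 5 rose (Cd34, Dpt, Dpep1, Eln and Mfap4), with a mean of 8.68 ± 0.10 in the knockout and 7.87 ± 0.09 in the control group (SD, n = 4 each), while Pi16, Thy1, Gli1 and Clec3b, further markers of these cells, did not pass. Cd34 had the largest difference of the list (3.08) and Entpd2 the lowest (-0.30). Of 9 vascular smooth muscle markers 4 fell (Rgs5, Mcam, Smtn and Kcnj8) and 1 rose (Tagln), while Myh11, Cnn1, Acta2 and Actg2 did not pass. In the control group Rgs5 and Kcnj8 had levels of 13.22 and 12.98, close to the stellate marker mean of 13.17. Of 10 Kupffer and myeloid markers 1 fell (Cd68, -0.61), while Vsig4 had the lowest difference of that list (-1.24, limma adjusted p = 0.104) and Ptprc the highest (0.28). Of 5 mesothelial markers 1 fell (Wt1). Of the 11 stellate markers 3 fell (Reln, Hand2 and Lhx2), of which Lhx2 is the deleted gene. Limma called 0 of 12 hepatocyte and 0 of 6 cholangiocyte markers, and at an unadjusted p under 0.05 it called 1 and 0. The cholangiocyte markers averaged 6.51 ± 0.07 in the knockout and 6.58 ± 0.09 in the control group (SD, n = 4 each), under the receptor percentile. The part of these cells in the ligand differences was not tested, apart from the hepatocyte and endothelial covariates given above.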

How the data were processed

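The deposited values are log2 expression, with 1 value for each probe set on each array, normalized by the authors with the Robust Multichip Algorithm (RMA), per the submitters' processing notes and the labels; no version, annotation or genome build is given in the sources used here. Per the labels' protocols, 150 ng RNA per sample was labelled. Batches were not given. Of 35556 probe sets, 21789 had 1 gene symbol in the platform annotation, 1621 several (left out), and 12146 were unnamed here. For 999 genes with more than 1 probe set the one with the highest mean was used. Knockout minus control was fitted over all 19938 genes and 8 arrays with limma 3.58.1 (lmFit and eBayes, R 4.3.3), with no covariate, no filter and no fold threshold. The fit was tested on simulated data. Members, gene lists and alternatives were chosen with earlier results of these data known. Named genes were the members, Lhx2, up to 6 called genes per pathway list, the 5 genes nearest to Bmp10 and to Gdf2, and the extremes of some marker lists. Other genes were named after their values were seen. Alternatives covered scaling, filters on dim genes, the variance model, array weights, probe set choice, single arrays left out, controls 1 and 4 left out, marker covariates and a threshold of 0.01. The number of arrays limits the precision.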

Additional observations from a re-analysis of the deposited data

Results flagged for a closer look

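Of 66 groups of 4 arrays examined (the ligands, Lhx2 and the 23 other genes of the naming rule, 2 groups each), 3 held 1 array far from the other 3 by Dixon's criterion, which chance meets in about 1 in 20 groups. Gdf6 was at 10.34 in knockout 5, and the nearest knockout array was at 10.81. Id4 was at 7.38 in knockout 7, and the nearest knockout array was at 7.78. Raet1d was at 7.63 in knockout 7, and the nearest knockout array was at 7.15.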

How the results depend on the processing

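No paired analysis was possible because the labels give no pairing of arrays between the groups and no batch. A pairing that was not recorded remains possible. Directions did not change under any of the 20 alternatives for Bmp10, Gdf2, Bmp2, Bmp4, Bmp5, Bmp6, Gdf6, Gdf11 or Lhx2, and Bmp7, never called, ran from -0.17 to 0.04. The filters on dim genes, the variance model, the probe set choice and the threshold left each of these differences the same by construction. Only the remaining alternatives could have changed a direction. Without controls 1 and 4, 371 genes were higher and 405 lower, in place of 749 and 723, and Gdf6 was 0.53 and not called; fewer arrays entered that fit. At a threshold of 0.01, 386 genes were higher and 389 lower, and Bmp6 (1.22), Gdf6 (0.63) and Gdf11 (0.44) were not called. Bmp2 passed with array weights (-0.29, limma adjusted p = 0.0394). Bmp6 did not pass with a trended, robust variance model (1.22, limma adjusted p = 0.0973), and with each array left out in turn it ran from 0.95 to 1.47; the cause was not tested. Bmp10 minus Gdf2 was -1.52 without controls 1 and 4, where 2 control arrays allow no smaller exact permutation p than 0.0667. Precision is limited by 4 arrays a group and, for Bmp7, by a level near that of unexpressed genes.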
